A study of Marchantia polymorpha and Arabidopsis thaliana and Oryza sativa Japonica Group with 116 samples.

Results

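Tonoplast intrinsic proteins (TIPs) are the aquaporins of the vacuolar membrane, and 5 genes of the TIP1 and TIP2 subgroups of the thale cress Arabidopsis thaliana form the subject. They were taken by locus identifier from the 32853 genes of the Arabidopsis count table, and the genome encodes 10 TIP genes in all. Their transcripts were followed in 44 RNA-seq libraries of whole seedlings from 3 heterotrimeric G-protein mutants and the wild type. The mutant gpa1-3 is named for the canonical Gα gene GPA1, agb1-2 for the Gβ gene AGB1, and xlg1,2,3 is mutant in all 3 genes of the extra-large Gα family. The wild type was the Col-0 accession. All seedlings were 7 days old and had grown in liquid half-strength MS medium in continuous light. Salt groups of 3 libraries cover each genotype at 0 h, 2 h and 24 h of 100 mM NaCl. Groups of 2 libraries cover 4 h in 0.3 µg/mL tunicamycin, an inhibitor of N-linked glycosylation that leaves unfolded proteins in the endoplasmic reticulum. The 4 h libraries were assigned to tunicamycin because the treatment protocol gives 4 h for that drug alone. The 0 h groups were the controls and no mock-treated group was analysed here, so treatment cannot be told apart from elapsed time or handling. The design text calls the libraries biological replicates, and the number of seedlings behind each is not given in the sources used here.

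A plant cell keeps most of its water and salt in the vacuole, and TIP channels let water cross the vacuolar membrane quickly, so that the cytoplasm keeps its volume when the water outside changes. Several TIPs also pass small neutral solutes such as urea, ammonia and hydrogen peroxide. Salt-stressed plants move sodium into the vacuole, and aquaporin transcripts and protein amounts are known to change in such plants. TIP1;1 (AT2G36830, chromosome 2, 15445294 to 15446621, plus strand), also called gamma-TIP, is an abundant water channel of expanding cells. TIP1;2 (AT3G26520, chromosome 3, 9722443 to 9723904, minus strand) is its close relative and carries the synonym salt-stress inducible tonoplast intrinsic protein in the RefSeq annotation. TIP2;1 (AT3G16240, chromosome 3, 5505360 to 5507050, plus strand), or delta-TIP, conducts water and ammonia. TIP2;2 (AT4G17340, chromosome 4, 9698940 to 9700472, plus strand) and TIP2;3 (AT5G47450, chromosome 5, 19248249 to 19249622, minus strand) are close relatives of it that are known mainly from roots, and TIP2;3 also conducts ammonia. Coordinates are those of TAIR10.1. The TIP1 pair shares 81.75% of aligned coding bases, with a longest identical run of 29 bases. The last pair named shares 81.54%, with a longest identical run of 26 bases.

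The 250 bases before the annotated start of 4 of the genes are shown. These genes form close pairs whose members differed in part of their response to salt, as described further on. At 24 h against 0 h the TIP1 pair changed in opposite directions in every genotype, and the other pair did so in the mutants only. The members of that other pair shared their direction at 2 h against 0 h (upward) and from 2 h to 24 h (downward) in every genotype. The sequences were read from the RefSeq TAIR10.1 genome, run 5′ to 3′ on the strand of the gene and end at the base before the start. Capitals mark matches to the motifs described after them.
TIP1;1 chr2:15445044-15445293 (plus strand): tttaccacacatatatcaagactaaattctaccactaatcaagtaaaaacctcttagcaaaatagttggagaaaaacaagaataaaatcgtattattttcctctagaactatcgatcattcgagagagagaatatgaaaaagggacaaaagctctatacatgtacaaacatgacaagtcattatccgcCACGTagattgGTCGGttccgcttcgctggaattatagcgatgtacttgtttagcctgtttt
TIP1;2 chr3:9723905-9724154 (minus strand): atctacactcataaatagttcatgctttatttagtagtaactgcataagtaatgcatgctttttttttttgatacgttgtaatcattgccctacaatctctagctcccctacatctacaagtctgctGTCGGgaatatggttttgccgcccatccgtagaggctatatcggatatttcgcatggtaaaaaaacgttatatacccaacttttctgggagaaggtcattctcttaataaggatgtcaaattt
TIP2;2 chr4:9698690-9698939 (plus strand): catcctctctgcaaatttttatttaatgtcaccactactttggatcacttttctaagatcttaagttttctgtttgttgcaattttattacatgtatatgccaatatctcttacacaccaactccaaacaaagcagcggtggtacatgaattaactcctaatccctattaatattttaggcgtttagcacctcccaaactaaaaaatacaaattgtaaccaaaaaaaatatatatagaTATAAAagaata
TIP2;3 chr5:19249623-19249872 (minus strand): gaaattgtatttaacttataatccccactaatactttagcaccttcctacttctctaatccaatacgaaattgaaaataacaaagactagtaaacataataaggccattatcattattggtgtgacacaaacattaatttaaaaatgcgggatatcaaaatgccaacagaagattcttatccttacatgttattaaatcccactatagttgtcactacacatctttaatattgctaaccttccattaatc

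In all, 8 motifs were searched on both strands in all 5 windows and in the same window of 27443 genes. The core of the abscisic acid response element, ACGTG, was in the TIP1;1 window alone among the 5 and in 22.9% of all windows. The core of the dehydration-responsive element, CCGAC, was in the TIP1;1 and TIP1;2 windows and in 12% of all. A TATA box spelled TATAAA lay 6 bases before the end of the TIP2;2 window and was in 47.3% of all. The G-box CACGTG, which holds the first motif within it, was in none of the 5 windows and in 6.49% of all. The same was true of the W-box as TTGACC (12.2% of all) or as TTGACT (19.1%), of the evening element AAATATCT (4.79%) and of the telo-box AAACCCTA (4.49%). The other 2 windows held none of the 8 motifs. These matches describe letters in a window and were not tested against the expression values.

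Total counts were 14135237 to 39011130 per library. Libraries numbered 3 held 14135237 to 16646410 and the others at least 27656151. The nearest library in expression belonged to the same group for 41 of 44 libraries, and the other 3 were gpa1-3 libraries at NaCl 24 h. GPA1 was at 16.3 ± 0.925 CPM in gpa1-3 against 119 ± 5.62 CPM in Col-0 at 0 h (CPM, counts scaled to library size with TMM, SD, n = 3 each). XLG2 and XLG3 were lower in xlg1,2,3 than in Col-0 (log2 -2.50 for XLG2 and -2.19 for XLG3), whereas XLG1 was higher at 0 h (log2 0.73). At 0 h AGB1 averaged 139 ± 18 CPM under the agb1-2 label, against 129.7 ± 6.41 in Col-0 (log2 0.10, adjusted p = 0.54). The AGB1 difference from Col-0 under that label was log2 -1.0 at NaCl 2 h, -0.69 at NaCl 24 h and 0.64 after tunicamycin, each past the threshold, so the level of the gene was lower than in Col-0 after salt only. BIP3, a chaperone gene induced by unfolded proteins, rose in the tunicamycin libraries of all 4 genotypes, by log2 4.84 to 6.85. Of 10 root markers, WER, COBL9 and PLT1 were under 1 CPM in 44 of 44 libraries, RHD6 in 43 and EXP7 in 42, whereas SCR (median 29.5 CPM), PHO1 (9.82), CASP1 (4.37), CASP2 (2.36) and SHR (2.31) were at or over 1 CPM in at least 42. Sums of the 10 root markers, given further on, thus weigh SCR and PHO1 most. The 8 shoot markers summed to at least 12389 CPM in every library. In bulk seedlings, fewer cells of a type cannot be told apart from less RNA per cell. The 9 seed markers, genes of storage proteins and oil bodies, summed to 112 to 211 CPM in gpa1-3 at 0 h against 0.247 to 0.617 CPM in Col-0 at 0 h, and reached 577 CPM in a gpa1-3 library at NaCl 24 h. These markers also varied within groups of the other genotypes. They summed to 0.501 to 94.7 CPM in Col-0 at NaCl 24 h and 0.650 to 166 CPM in xlg1,2,3 at NaCl 2 h. In the libraries labelled agb1-2 at NaCl 24 h they summed to 0.732 to 78.5 CPM. Their part in the results was not tested.

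All 5 genes passed the filter on low counts, but TIP2;3 was at or above the 0.337 CPM it requires in 21 of 44 libraries only, whereas the other 4 were above it in all 44. Levels were compared between genes as CPM per kilobase of exon. On that scale the order was TIP1;2, TIP2;1, TIP1;1, TIP2;2 and TIP2;3 from high to low in all 16 groups. Libraries of neighbours in that order overlapped in 2 groups, both at NaCl 2 h: the third and the fourth gene in the libraries labelled agb1-2, and the second and the third gene in Col-0. Over the 44 libraries the most abundant gene ranged over 446 to 1560 CPM per kilobase, the least abundant over 0 to 5.30.

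**Figure D1:**
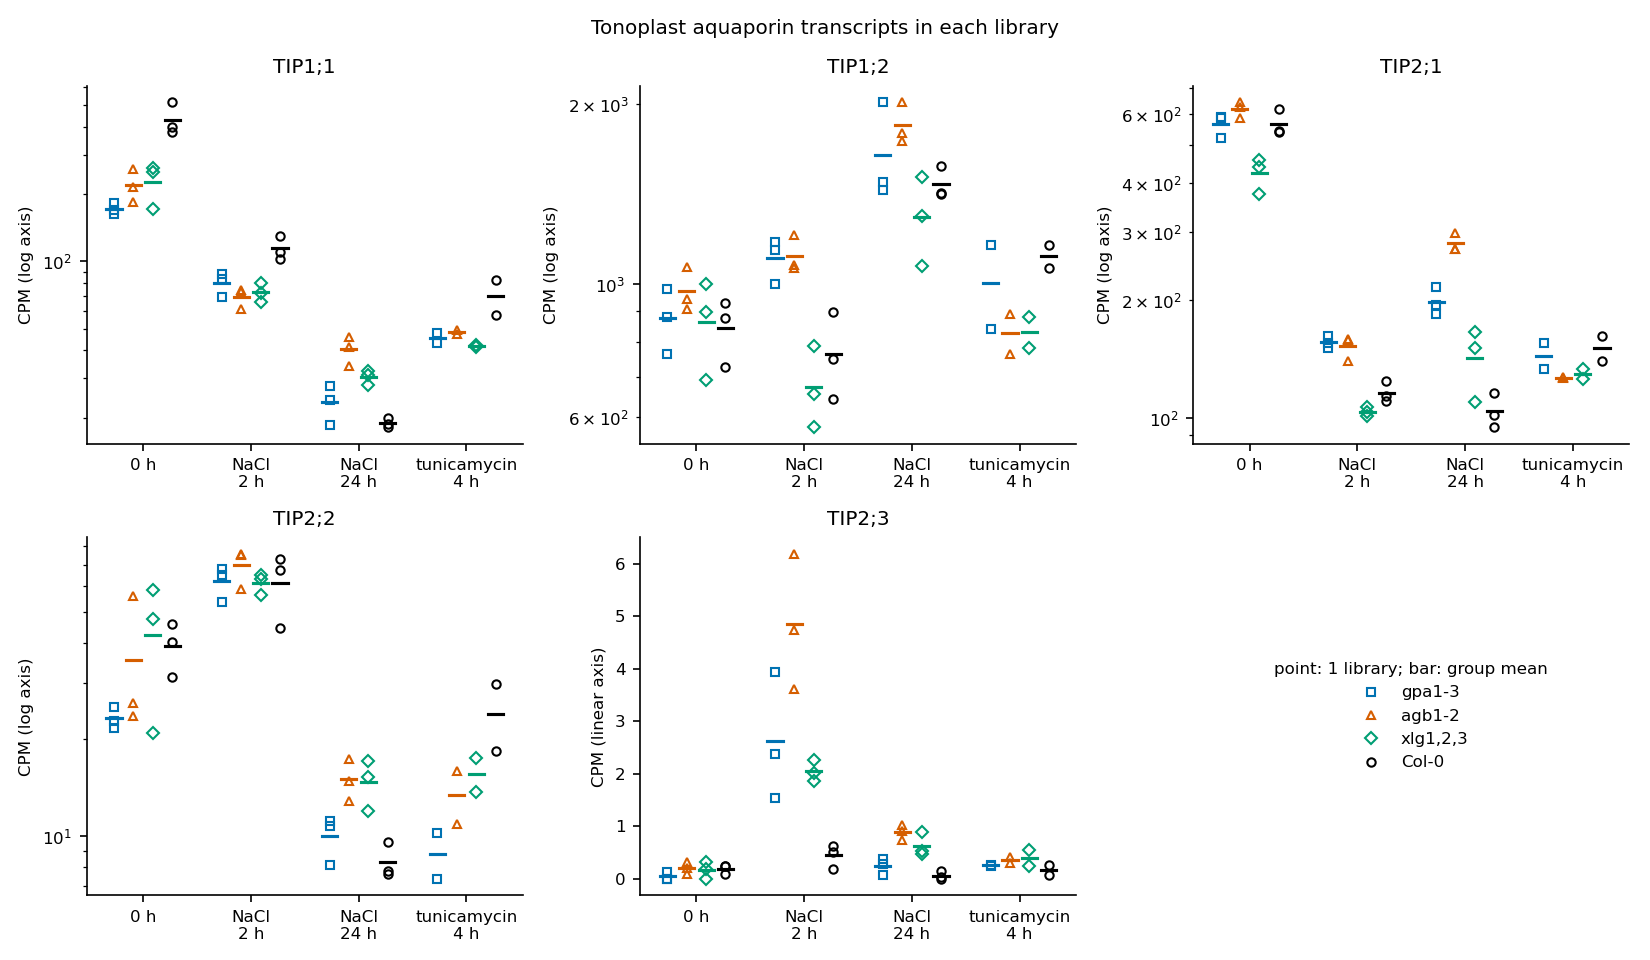
CPM of each gene in every library at 0 h, NaCl 2 h, NaCl 24 h and tunicamycin 4 h, with a point per library, a bar at the group mean, and colours for gpa1-3, the libraries labelled agb1-2, xlg1,2,3 and Col-0. The axis is logarithmic for 4 genes and linear for TIP2;3, whose libraries labelled agb1-2 at NaCl 2 h lie at 3.62 to 6.19 CPM.

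The make-up of the 5 transcripts, as shares of their summed CPM per kilobase, moved toward TIP1;2 under salt and after tunicamycin. At 0 h TIP1;1 made up 10.6 ± 0.428% in gpa1-3, 12 ± 1.06% in the libraries labelled agb1-2 and 14.7 ± 0.861% in xlg1,2,3, against 23 ± 2.04% in Col-0. After 24 h of NaCl its share was 1.31 ± 0.315% in gpa1-3, 1.91 ± 0.216% in the libraries labelled agb1-2 and 2.16 ± 0.260% in xlg1,2,3, against 1.22 ± 0.0214% in Col-0. The share of its relative TIP1;2 in Col-0 was 43.4 ± 2.55% at 0 h, 71.3 ± 3.09% at 2 h and 91.3 ± 0.968% at 24 h of NaCl. At 24 h it was 86.7 ± 1.36% in gpa1-3, 83.6 ± 0.534% in the libraries labelled agb1-2 and 86.6 ± 0.667% in xlg1,2,3. TIP2;1 at 24 h made up 11.5 ± 1.07% in gpa1-3, 13.8 ± 0.329% in the libraries labelled agb1-2 and 10.3 ± 0.591% in xlg1,2,3, against 7.03 ± 1.00% in Col-0. The summed level in Col-0 was 1508 ± 165 CPM per kilobase at 0 h, 827 ± 103 at NaCl 2 h and 1247 ± 64.3 at NaCl 24 h. In gpa1-3 it was 1311 ± 122 at 0 h, 1101 ± 90.4 at NaCl 2 h and 1466 ± 264 at NaCl 24 h. In the libraries labelled agb1-2 it was 1479 ± 122, then 1104 ± 76.1, then 1710.0 ± 130.3, and in xlg1,2,3 it was 1240.0 ± 209, then 714 ± 85.9, then 1159.6 ± 197. By its mean, the sum was lowest at NaCl 2 h among these times in every genotype. After 4 h of tunicamycin it was 942 ± 194 in gpa1-3, 797 ± 72.8 in the libraries labelled agb1-2, 798 ± 61.7 in xlg1,2,3 and 1063 ± 87.3 in Col-0 (SD, n = 2 each). The TIP1;2 share in these tunicamycin groups was 82.3 ± 1.78% in gpa1-3 and 80.4 ± 1.30% in the libraries labelled agb1-2. It was 80.6 ± 0.581% in xlg1,2,3 and 81.1 ± 1.57% in Col-0. Shares and sums are descriptions and were not tested.

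**Figure D2:**
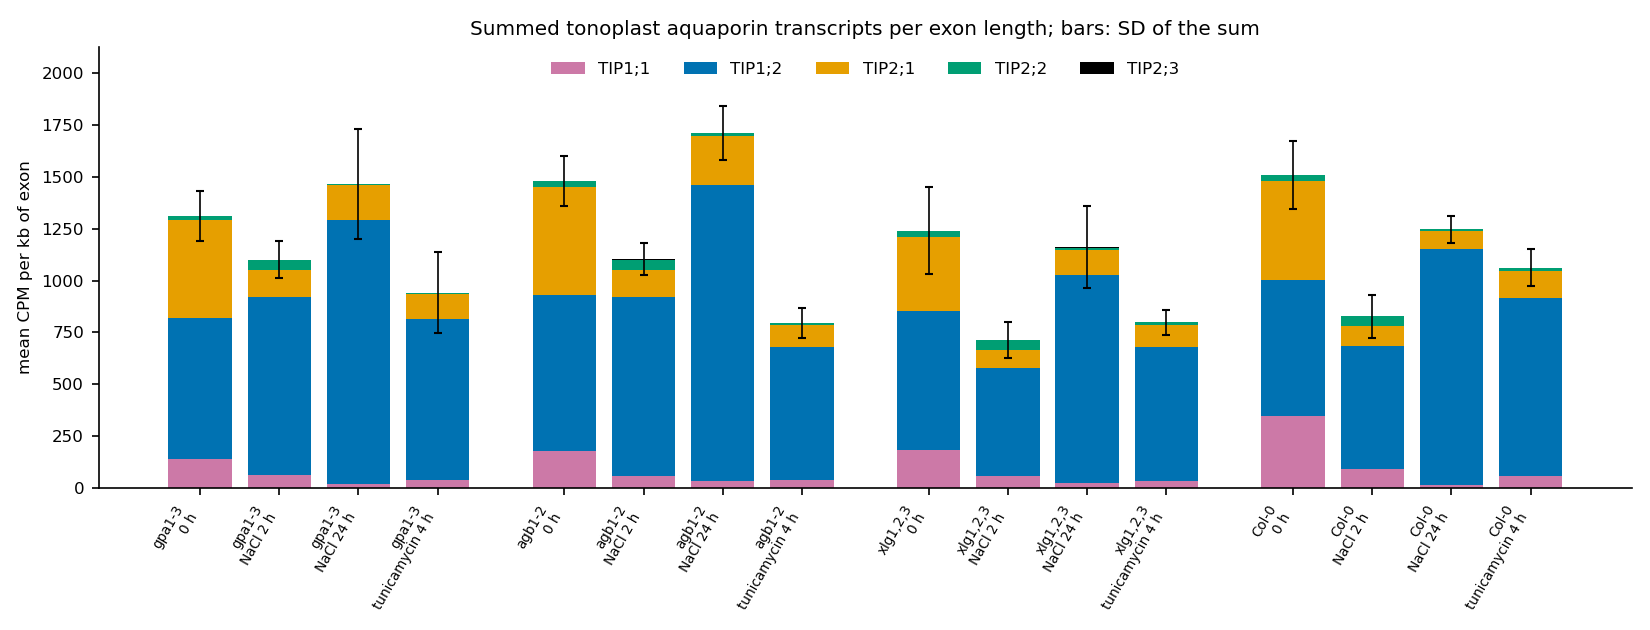
Mean CPM per kilobase of exon of the 5 genes, stacked for each of the 16 groups, with bars for the SD of the sum over 3 libraries (2 for tunicamycin). TIP1;2 forms the largest block in each column, and the TIP1;1 block, 23% of the Col-0 column at 0 h, is 1.22% of it at NaCl 24 h.

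The first question was how salt changed each gene within a genotype. Differences were tested with edgeR's quasi-likelihood F-test across all 20858 genes that passed the filter, with Benjamini-Hochberg adjustment in each comparison, and a gene was called at an adjusted p under 0.05. At NaCl 2 h against 0 h, 4 of the 5 genes were called in gpa1-3 (2 higher, 2 lower), 4 in the libraries labelled agb1-2 (2 and 2), 4 in xlg1,2,3 (1 and 3) and 3 in Col-0 (1 and 2). The share of all genes called was 53.5% in gpa1-3, 54.3% in the libraries labelled agb1-2, 54.3% in xlg1,2,3 and 56.3% in Col-0. At NaCl 24 h against 0 h, 5 genes were called in each mutant (2 higher, 3 lower) and 4 in Col-0 (1 higher, 3 lower), beside 57.1% of all genes in gpa1-3, 60.2% in the libraries labelled agb1-2, 60.6% in xlg1,2,3 and 57.8% in Col-0. At NaCl 24 h against NaCl 2 h, 5 were called in each mutant (2 higher, 3 lower) and 4 in Col-0 (1 and 3), beside 49.6% of all genes in gpa1-3, 53.5% in the libraries labelled agb1-2, 56.6% in xlg1,2,3 and 50.8% in Col-0. Against so high a background, the counts of called TIP genes show nothing particular to them. The median log2 change of the 5 genes at 24 h against 0 h was -1.20 in gpa1-3, -1.15 in the libraries labelled agb1-2, -1.53 in xlg1,2,3 and -2.24 in Col-0, and the median over all genes tested was 0.023 in gpa1-3, 0.017 in the libraries labelled agb1-2, 0.007 in xlg1,2,3 and -0.009 in Col-0.

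TIP1;1 fell in all 4 genotypes at 2 h and fell further by 24 h. In gpa1-3 its 3 libraries were at 162, 183 and 170.2 CPM at 0 h, 69.4, 87.6 and 83.5 at 2 h and 23.9, 27.7 and 18.6 at 24 h. The libraries labelled agb1-2 were at 185, 215 and 259.8 CPM, then 74.5, 72.9 and 61.3, then 41.3, 46.1 and 34. No library of a later time reached those of an earlier time in either genotype. In xlg1,2,3 the values were 171, 259.9 and 251 CPM at 0 h, 66, 72 and 79.8 at 2 h and 31.1, 28 and 32.4 at 24 h. Col-0 started highest, at 399.7, 514 and 377 CPM, was at 102, 110.0 and 130.2 at 2 h and ended at 18.1, 18.6 and 19.9 at 24 h, overlapping the gpa1-3 libraries of that time. The 3 times did not overlap in these genotypes either. At 2 h the log2 change was -1.10 (SE 0.15, adjusted p = 2.8e-07) in gpa1-3, -1.66 (SE 0.16, adjusted p = 6.7e-11) in the libraries labelled agb1-2, -1.65 (SE 0.16, adjusted p = 8.0e-11) in xlg1,2,3 and -1.92 (SE 0.16, adjusted p = 2.3e-12) in Col-0. At 24 h the gene was 7.30-fold below 0 h in gpa1-3 (log2 -2.87, SE 0.17), 5.41-fold in the libraries labelled agb1-2 (log2 -2.44, SE 0.16), 7.45-fold in xlg1,2,3 (log2 -2.90, SE 0.17) and 22.8-fold in Col-0 (log2 -4.51, SE 0.18). The adjusted p-values at 24 h were at most 2.0e-14.

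TIP1;2, the most abundant of the 5, rose at 24 h in every genotype and had no common direction at 2 h. In gpa1-3 it was at 765, 982 and 880.0 CPM at 0 h, 998, 1141 and 1176 at 2 h and 2013, 1479 and 1436 at 24 h. In the libraries labelled agb1-2 the values were 907, 945 and 1066, then 1076, 1206 and 1062, then 1732, 2013 and 1789 CPM. Libraries at 24 h lay above all earlier ones in both genotypes. In xlg1,2,3 TIP1;2 was at 691, 998 and 898 CPM at 0 h, 654, 576 and 787 at 2 h and 1512, 1072 and 1300.2 at 24 h. In Col-0 it was at 727, 928 and 878, then 897, 750.1 and 643, then 1413, 1421 and 1572 CPM. The 24 h libraries of these genotypes were again the highest, and those at 2 h overlapped the 0 h ones. The log2 change at 24 h was 0.91 (SE 0.15, adjusted p = 5.9e-06) in gpa1-3, 0.92 (SE 0.15, adjusted p = 3.9e-06) in the libraries labelled agb1-2, 0.59 (SE 0.15, adjusted p = 0.0013) in xlg1,2,3 and 0.80 (SE 0.15, adjusted p = 3.7e-05) in Col-0. At 2 h it was called only in xlg1,2,3, at -0.36 (SE 0.15, adjusted p = 0.045), although 2 h and 0 h libraries overlapped, and leaving out any of 4 libraries, leaving out all libraries numbered 3 or fitting only these 2 groups ended that call. In gpa1-3 at 2 h it was 0.34 (SE 0.15, adjusted p = 0.061), with libraries clear of those at 0 h, and it was called when only these 2 groups were fitted (adjusted p = 0.019).

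TIP2;1 fell at 2 h in all genotypes, and from 2 h to 24 h it was called higher in each mutant but not in Col-0. Whether that later step differed between genotypes was not tested. In gpa1-3 it was at 523, 590.1 and 586 CPM at 0 h, 151, 162 and 156 at 2 h and 216, 195 and 184 at 24 h. In the libraries labelled agb1-2 it was at 587, 645 and 628, then 158, 159 and 139.7, then 271, 297 and 271 CPM. Both genotypes were lowest at 2 h and in between at 24 h, with no overlap between times. In xlg1,2,3 the values were 374, 440.2 and 457 CPM at 0 h, 103, 107 and 101 at 2 h and 166, 109.6 and 151 at 24 h. In Col-0 they were 540.1, 618 and 543, then 124, 110.3 and 113, then 116, 101 and 94.4 CPM. In Col-0 the 2 h and 24 h libraries overlapped. The log2 change at 2 h against 0 h was -1.86 (SE 0.11, adjusted p = 4.9e-16) in gpa1-3, -2.02 (SE 0.11, adjusted p = 6.2e-17) in the libraries labelled agb1-2, -2.03 (SE 0.11, adjusted p = 7.0e-17) in xlg1,2,3 and -2.29 (SE 0.11, adjusted p = 3.4e-18) in Col-0. At 24 h against 0 h it was -1.51 in gpa1-3, -1.15 in the libraries labelled agb1-2, -1.57 in xlg1,2,3 and -2.45 in Col-0, with adjusted p-values of at most 5.0e-11. From 2 h to 24 h the gene rose in gpa1-3 (log2 0.35, SE 0.11, adjusted p = 0.0069), in the libraries labelled agb1-2 (log2 0.88, SE 0.11, adjusted p = 2.1e-08) and in xlg1,2,3 (log2 0.46, SE 0.11, adjusted p = 4.6e-04), and in Col-0 the log2 change was -0.16 (SE 0.11, adjusted p = 0.21). Its exons share 120 of 1189 bases with AT3G16250 on the other strand, and 46 bases with a long non-coding RNA. Whether the counting used strand is not given in the sources used here, and AT3G16250 itself was at 7.03 to 44.3 CPM.

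TIP2;2 was high at 2 h and low at 24 h. In gpa1-3 it was at 21.7, 22.9 and 25.3 CPM at 0 h, 53.5, 65.2 and 68.1 at 2 h and 11.1, 10.7 and 8.10 at 24 h. In the libraries labelled agb1-2 it was at 23.7, 26 and 56.2, then 75.8, 74.9 and 59, then 17.4, 14.9 and 12.8 CPM. The 0 h libraries labelled agb1-2 spread widely, with the third far above the other 2, and still lay below all 2 h libraries of that label. In xlg1,2,3 the values were 21, 58.7 and 47.5 CPM at 0 h, 56.3, 63.4 and 65.3 at 2 h and 15.2, 11.9 and 17.1 at 24 h. In Col-0 they were 31.2, 45.7 and 40.3, then 72.8, 67.6 and 44.5, then 7.77, 7.61 and 9.59 CPM. The 2 h and 0 h libraries overlapped in xlg1,2,3 and in Col-0, and all 24 h libraries lay below those of the other 2 times. At 2 h the log2 change was 1.42 (SE 0.28, adjusted p = 5.4e-05) in gpa1-3, 1.01 (SE 0.27, adjusted p = 0.0021) in the libraries labelled agb1-2, 0.54 (SE 0.27, adjusted p = 0.088) in xlg1,2,3 and 0.66 (SE 0.27, adjusted p = 0.036) in Col-0. The Col-0 call at 2 h was lost on leaving out any of 4 of its 6 libraries. At 24 h against 0 h the gene fell 2.30-fold in gpa1-3, 2.29-fold in the libraries labelled agb1-2, 2.88-fold in xlg1,2,3 and 4.73-fold in Col-0, with adjusted p-values of at most 7.5e-04. For the libraries labelled agb1-2 the log2 change of -1.20 was -0.62 without the libraries numbered 3 and was then not called (adjusted p = 0.10). The 10 root markers summed to 35.5 to 38.2 CPM in Col-0 at 0 h, 61.2 to 73 at 2 h and 54.5 to 62.3 at 24 h, and their part in these changes was not tested.

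TIP2;3 was near 0 before salt and appeared at 2 h in the mutants. Its counts at 0 h were 5, 0 and 0 in gpa1-3, 4, 7 and 5 in the libraries labelled agb1-2, 0, 11 and 3 in xlg1,2,3 and 3, 8 and 4 in Col-0. At 2 h the counts were 55, 67 and 63 in gpa1-3, 231, 137 and 55 in the libraries labelled agb1-2, 71, 64 and 34 in xlg1,2,3 and 23, 16 and 3 in Col-0. Every mutant library at 2 h lay above every 0 h library of its genotype, and the Col-0 libraries overlapped. In CPM the 2 h libraries were at 1.54, 2.37 and 3.94 in gpa1-3, 6.19, 4.75 and 3.62 in those labelled agb1-2, 1.87, 2.26 and 2.01 in xlg1,2,3 and 0.628, 0.515 and 0.189 in Col-0. The log2 change at 2 h was 5.38 (SE 0.66, adjusted p = 2.2e-08) in gpa1-3, 4.71 (SE 0.53, adjusted p = 3.5e-09) in the libraries labelled agb1-2, 3.59 (SE 0.57, adjusted p = 2.1e-06) in xlg1,2,3 and 1.40 (SE 0.65, adjusted p = 0.068) in Col-0. In Col-0 DESeq2 called the change at 2 h (adjusted p = 0.039), as did edgeR without replicate 3 of Col-0 at 2 h (0.037). The size of the gpa1-3 change is poorly fixed, since gpa1-3 had 5 counts in all at 0 h, and its log2 value ranged over 4.71 to 9.13 when single libraries were left out. By 24 h the gene had come down again: its log2 change from 2 h was -3.18 in gpa1-3, -2.48 in the libraries labelled agb1-2, -1.75 in xlg1,2,3 and -2.76 in Col-0, all called (adjusted p at most 0.0053). It remained above 0 h in the libraries labelled agb1-2, with counts of 25, 20 and 14 at 24 h (log2 2.22, SE 0.61, adjusted p = 0.0023). The calls at 24 h against 0 h in gpa1-3 (log2 2.20, SE 0.92, adjusted p = 0.040) and xlg1,2,3 (log2 1.83, SE 0.66, adjusted p = 0.016) were lost on leaving out any of 4 libraries in gpa1-3, where the 2 times overlapped, and any of 2 in xlg1,2,3. At most 231 reads were counted for TIP2;3 in a library, so that counting error weighs on each of these values.

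**Figure D3:**
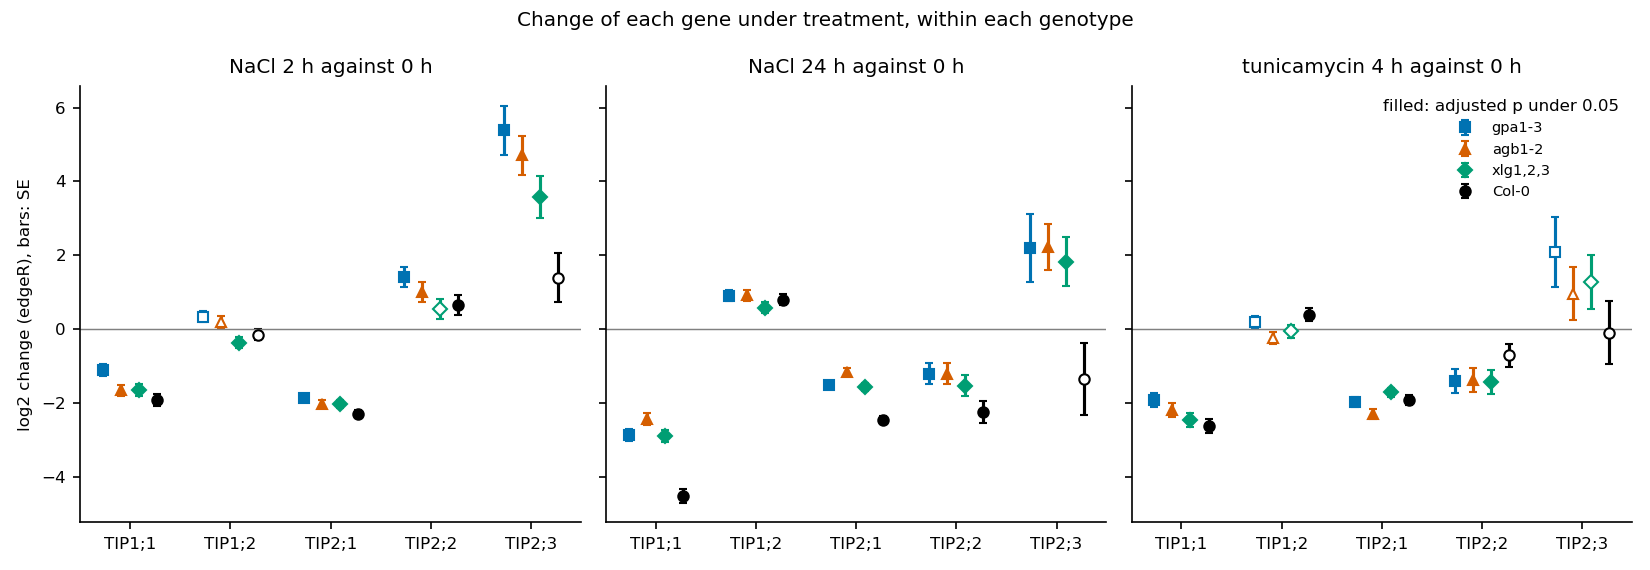
Log2 change from 0 h (edgeR, bars SE) of each gene at NaCl 2 h, NaCl 24 h and tunicamycin 4 h, in gpa1-3, the libraries labelled agb1-2, xlg1,2,3 and Col-0, with filled symbols at an adjusted p under 0.05. TIP1;1 and TIP2;1 lie below 0 in all panels, and the lowest point at NaCl 24 h, -4.51, is that of TIP1;1 in Col-0.

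The second question was how tunicamycin changed the genes. TIP1;1 and TIP2;1 fell in all 4 genotypes. TIP2;2 was called lower in the 3 mutants and was just short of a call in Col-0. The number called was 3 in each mutant, all lower, beside 49.5% of all genes in gpa1-3, 43.9% in the libraries labelled agb1-2 and 51.4% in xlg1,2,3. In Col-0 it was 1 higher and 2 lower, beside 55.8% of all genes. TIP1;1 after tunicamycin was at 47.9 and 43.3 CPM in gpa1-3, 49.2 and 47.6 in the libraries labelled agb1-2, 42.1 and 41.4 in xlg1,2,3 and 57.5 and 82.2 in Col-0. All lay below the 0 h libraries of their genotype, with log2 changes of -1.91 in gpa1-3, -2.18 in the libraries labelled agb1-2, -2.44 in xlg1,2,3 and -2.62 in Col-0 (SE at most 0.19, adjusted p at most 2.1e-10). TIP2;1 was at 156 and 133 CPM in gpa1-3, 127 and 126 in the libraries labelled agb1-2, 133 and 125 in xlg1,2,3 and 139.6 and 162 in Col-0, again clear of the 0 h libraries. Its log2 changes were -1.97 in gpa1-3, -2.29 in the libraries labelled agb1-2, -1.71 in xlg1,2,3 and -1.91 in Col-0 (SE at most 0.13, adjusted p at most 3.7e-13).

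TIP2;2 after tunicamycin was at 10.2 and 7.35 CPM in gpa1-3, 15.9 and 10.9 in the libraries labelled agb1-2, 17.4 and 13.7 in xlg1,2,3 and 18.4 and 29.7 in Col-0. Its log2 change was -1.40 (SE 0.33, adjusted p = 7.0e-04) in gpa1-3, -1.37 (SE 0.32, adjusted p = 8.2e-04) in the libraries labelled agb1-2, -1.44 (SE 0.32, adjusted p = 3.3e-04) in xlg1,2,3 and -0.70 (SE 0.31, adjusted p = 0.055) in Col-0. The Col-0 value was just short of a call and was called by DESeq2 (adjusted p = 0.037). It was also called by edgeR with DESeq2 size factors (0.049) and when only the groups compared were fitted (0.018). TIP1;2 was at 1164 and 842 CPM in gpa1-3, 889.7 and 764 in the libraries labelled agb1-2, 880.3 and 781 in xlg1,2,3 and 1062 and 1161 in Col-0. It was called in Col-0 alone, at log2 0.40 (SE 0.17, adjusted p = 0.044), and that call was lost with DESeq2 size factors (adjusted p = 0.053), without a low-count filter (0.059), without the libraries numbered 3 (0.083) and on leaving out any of 4 of the 5 libraries. TIP2;3 had 10 and 7 counts in gpa1-3, 15 and 9 in the libraries labelled agb1-2, 22 and 7 in xlg1,2,3 and 9 and 2 in Col-0. It was called in no genotype by edgeR, where the unadjusted p was under 0.05 in gpa1-3 (log2 2.1, SE 0.95), and DESeq2 called it there. Root markers summed to 73.9 to 80.5 CPM in Col-0 after tunicamycin against 35.5 to 38.2 CPM at 0 h.

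The third question was where the mutants stood relative to Col-0 under the same condition. All mutants were set against the same Col-0 libraries, so their values are not independent of each other. At 0 h TIP1;1 was lower in all 3 mutants, and TIP2;1 was lower in xlg1,2,3. This made 1 gene called in gpa1-3, 1 in the libraries labelled agb1-2 and 2 in xlg1,2,3, beside 13.7% of all genes in gpa1-3, 31.6% in the libraries labelled agb1-2 and 16.3% in xlg1,2,3. TIP1;1 averaged 172 ± 10.5 CPM in gpa1-3, 219.8 ± 37.7 in the libraries labelled agb1-2 and 227 ± 49.2 in xlg1,2,3, against 430.2 ± 73.4 CPM in Col-0 (SD, n = 3 each). The log2 difference was -1.32 (SE 0.15, adjusted p = 1.5e-07) in gpa1-3, -0.97 (SE 0.15, adjusted p = 1.1e-05) in the libraries labelled agb1-2 and -0.92 (SE 0.15, adjusted p = 3.6e-05) in xlg1,2,3. No mutant library reached a Col-0 library, and these 3 calls held under every alternative tried. Seed markers summed to 121, 0.610 and 78.0 CPM in the 3 xlg1,2,3 libraries at 0 h, where this gene was at 171, 259.9 and 251 CPM. TIP2;1 averaged 424 ± 43.9 CPM in xlg1,2,3 and 567 ± 44 CPM in Col-0 (log2 -0.42, SE 0.11, adjusted p = 0.0045), and the call was lost without replicate 1 of xlg1,2,3 (adjusted p = 0.052). The other 3 genes were called in no mutant at 0 h by edgeR. The lowest adjusted p among them was that of TIP2;2 in gpa1-3, at 23.3 ± 1.85 CPM in gpa1-3 against 39.1 ± 7.31 CPM in Col-0 (log2 -0.75, SE 0.28, adjusted p = 0.067), with no overlap, and it was called when only these 2 groups were fitted (adjusted p = 0.0030).

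At NaCl 2 h TIP1;1 was still lower in all 3 mutants and TIP2;3 higher in all 3, while the 2 most abundant genes were higher in gpa1-3 and in the libraries labelled agb1-2. The counts were 3 higher and 1 lower in gpa1-3, 3 and 1 in the libraries labelled agb1-2, and 1 and 1 in xlg1,2,3, beside 22% of all genes in gpa1-3, 34.1% in the libraries labelled agb1-2 and 14% in xlg1,2,3. TIP1;1 averaged 80.2 ± 9.56 CPM in gpa1-3, 69.6 ± 7.19 in the libraries labelled agb1-2 and 72.6 ± 6.92 in xlg1,2,3, against 114 ± 14.5 in Col-0, with log2 differences of -0.51 (SE 0.15, adjusted p = 0.015) in gpa1-3, -0.71 (SE 0.15, adjusted p = 4.5e-04) in the libraries labelled agb1-2 and -0.65 (SE 0.15, adjusted p = 0.0029) in xlg1,2,3. TIP2;3 averaged 2.62 ± 1.22 in gpa1-3, 4.85 ± 1.29 in the libraries labelled agb1-2 and 2.05 ± 0.195 in xlg1,2,3, against 0.444 ± 0.228 CPM in Col-0, and every mutant library was above every Col-0 library. Its log2 difference was 2.37 (SE 0.47, adjusted p = 2.8e-04) in gpa1-3, 3.33 (SE 0.46, adjusted p = 6.3e-07) in the libraries labelled agb1-2 and 2.07 (SE 0.48, adjusted p = 0.0022) in xlg1,2,3. TIP1;2 was 1.45-fold higher in gpa1-3 (adjusted p = 0.0095) and 1.46-fold higher in the libraries labelled agb1-2 (adjusted p = 0.0049), and TIP2;1 1.34-fold higher in gpa1-3 (adjusted p = 0.0029) and 1.31-fold in the libraries labelled agb1-2 (adjusted p = 0.0038). Without the libraries numbered 3, the count for gpa1-3 was 1, that of TIP2;3, and the TIP1;2 call in the libraries labelled agb1-2 was lost as well. Without replicate 3 of Col-0 at 2 h alone, both TIP1 calls in gpa1-3 were lost (adjusted p = 0.085 and 0.068). Root markers summed to 33.3 to 43.1 CPM in gpa1-3, 45.9 to 47.6 in the libraries labelled agb1-2 and 41.7 to 55.4 in xlg1,2,3 against 61.2 to 73 CPM in Col-0 at this time. Their part in these differences was not tested.

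At NaCl 24 h every called difference was upward. TIP2;1 was higher in all 3 mutants, and all others but TIP1;2 were higher in xlg1,2,3 and in the libraries labelled agb1-2. The counts were 1 in gpa1-3, 4 in the libraries labelled agb1-2 and 4 in xlg1,2,3, beside 7.93% of all genes in gpa1-3, 35.4% in the libraries labelled agb1-2 and 19.5% in xlg1,2,3. TIP2;1 averaged 198 ± 16.2 CPM in gpa1-3, 279.9 ± 14.9 in the libraries labelled agb1-2 and 142 ± 29.4 in xlg1,2,3, against 104 ± 10.8 CPM in Col-0. Its log2 difference was 0.93 (SE 0.11, adjusted p = 2.0e-07) in gpa1-3, 1.43 (SE 0.11, adjusted p = 6.4e-12) in the libraries labelled agb1-2 and 0.46 (SE 0.11, adjusted p = 0.0022) in xlg1,2,3, and the xlg1,2,3 libraries overlapped with Col-0. The xlg1,2,3 call was lost when only these 2 groups were fitted (adjusted p = 0.083). For TIP1;1, lower in the mutants before, the means were 23.4 ± 4.56 in gpa1-3, 40.5 ± 6.07 in the libraries labelled agb1-2 and 30.5 ± 2.28 in xlg1,2,3, against 18.9 ± 0.898 CPM in Col-0. The log2 difference was 0.32 (SE 0.16, adjusted p = 0.24) in gpa1-3, 1.11 (SE 0.16, adjusted p = 2.0e-06) in the libraries labelled agb1-2 and 0.69 (SE 0.16, adjusted p = 0.0022) in xlg1,2,3. TIP2;2 was 1.84-fold higher in the libraries labelled agb1-2 (adjusted p = 0.022) and 1.78-fold in xlg1,2,3 (adjusted p = 0.048). The call in the libraries labelled agb1-2 was lost on leaving out any of 3 libraries, and that in xlg1,2,3 with a replicate block in the model (adjusted p = 0.050) or on leaving out any of 5 libraries. TIP2;3 counts were 8, 10 and 1 in gpa1-3, 25, 20 and 14 in the libraries labelled agb1-2, 16, 13 and 15 in xlg1,2,3 and 1, 4 and 0 in Col-0, with calls in the libraries labelled agb1-2 (log2 3.6, SE 0.76, adjusted p = 3.4e-04) and in xlg1,2,3 (log2 3.07, SE 0.80, adjusted p = 0.0058). Without the libraries numbered 3, only 1 of the 5 genes was called in xlg1,2,3.

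After tunicamycin every called difference was downward. TIP1;1 was lower in gpa1-3 (log2 -0.61, SE 0.19, adjusted p = 0.019) and in xlg1,2,3 (log2 -0.74, SE 0.19, adjusted p = 0.0072), and TIP2;2 was lower in gpa1-3 (log2 -1.45, SE 0.35, adjusted p = 0.0028). In all, 2 genes were called in gpa1-3, 0 in the libraries labelled agb1-2 and 1 in xlg1,2,3, beside 19.9% of all genes in gpa1-3, 8.87% in the libraries labelled agb1-2 and 13.2% in xlg1,2,3. In the libraries labelled agb1-2, where edgeR and DESeq2 called 0 of the 5, the unadjusted p was under 0.05 for 3 genes. TIP2;2 averaged 8.77 ± 2.01 CPM in gpa1-3 against 24.1 ± 7.94 CPM in Col-0 (SD, n = 2 each). The 2 Col-0 libraries differed in both genes, by the values given above, and without the second of them no gene was called in any mutant.

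**Figure D4:**
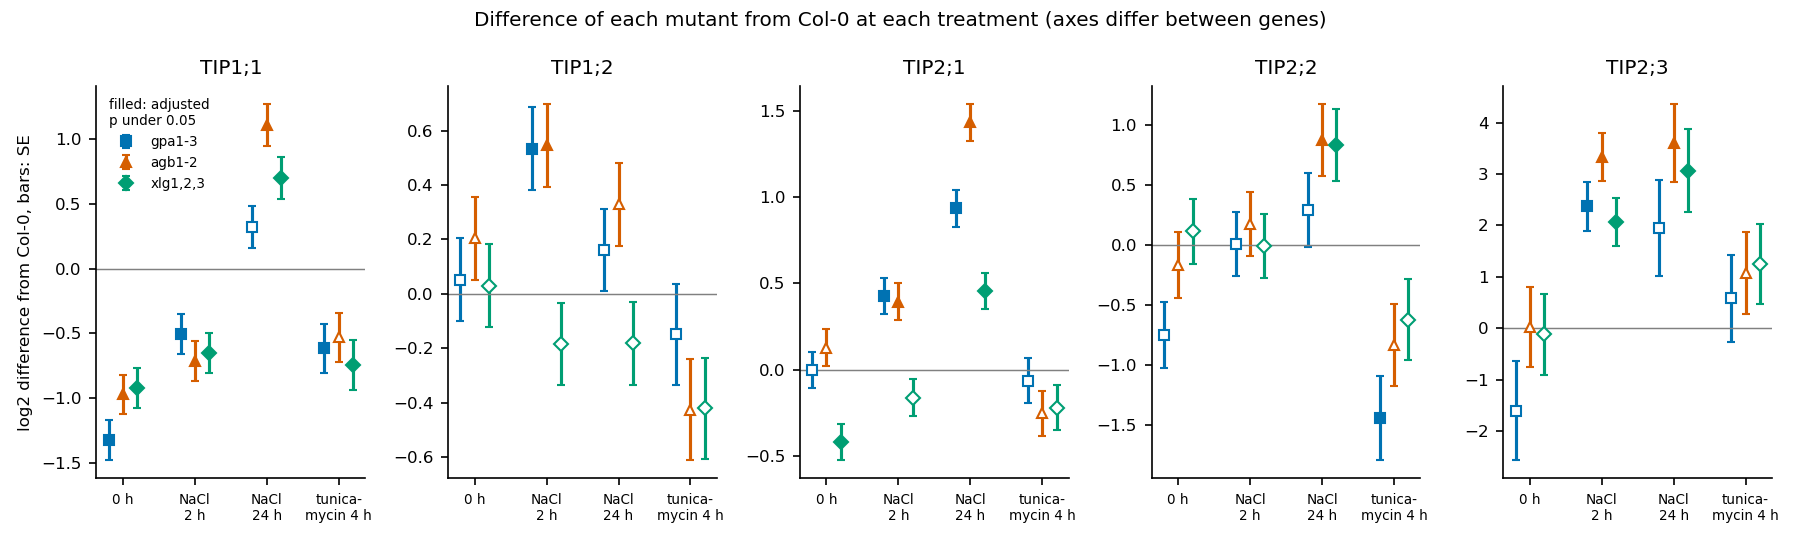
Log2 difference from Col-0 (edgeR, bars SE) of each gene in gpa1-3, the libraries labelled agb1-2 and xlg1,2,3 at 0 h, NaCl 2 h, NaCl 24 h and tunicamycin 4 h, with filled symbols at an adjusted p under 0.05 and an axis of its own for each gene. TIP1;1 lies below 0 at 0 h (-1.32 to -0.92) and above it at NaCl 24 h (0.32 to 1.11), and TIP2;1 reaches 1.43 at NaCl 24 h in the libraries labelled agb1-2.

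The last question was whether the responses themselves differed from that of Col-0, tested as an interaction. Each such test uses the Col-0 libraries of both conditions, so the 3 mutants share them. All called differences were positive. TIP1;1 fell less by 24 h of NaCl in all 3 mutants, by a log2 difference of 1.65 (SE 0.22, adjusted p = 2.3e-05) in gpa1-3, 2.08 (SE 0.22, adjusted p = 1.4e-07) in the libraries labelled agb1-2 and 1.62 (SE 0.22, adjusted p = 2.2e-05) in xlg1,2,3. TIP2;1 did so too, by 0.94 (SE 0.15, adjusted p = 1.7e-04) in gpa1-3, 1.30 (SE 0.15, adjusted p = 4.6e-07) in the libraries labelled agb1-2 and 0.88 (SE 0.15, adjusted p = 2.8e-04) in xlg1,2,3. These 6 calls held under every alternative tried. TIP2;3 differed in the libraries labelled agb1-2 (log2 3.58, SE 1.15, adjusted p = 0.022), and the values for gpa1-3 (log2 3.56, SE 1.34, adjusted p = 0.12) and xlg1,2,3 (log2 3.19, SE 1.17, adjusted p = 0.082) were similar in size and not called by edgeR, although DESeq2 called both (adjusted p = 0.033 in gpa1-3 and 0.021 in xlg1,2,3). The call in the libraries labelled agb1-2 was lost on leaving out any of 3 libraries, and in edgeR without all libraries numbered 3 (adjusted p = 0.090). The counts at 24 h were 2 of 5 genes in gpa1-3, 3 in the libraries labelled agb1-2 and 2 in xlg1,2,3, beside 5.69% of all genes in gpa1-3, 23.6% in the libraries labelled agb1-2 and 9.23% in xlg1,2,3. For TIP1;1 in gpa1-3 the difference of 1.65 is that between 0.32 at 24 h and -1.32 at 0 h, whereas in the libraries labelled agb1-2 the values were 1.11 at 24 h and -0.97 at 0 h.

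At 2 h the called differences were TIP1;1 in gpa1-3 (log2 0.82, SE 0.22, adjusted p = 0.022), and TIP2;3 in gpa1-3 (log2 3.98, SE 1.08, adjusted p = 0.024) and in the libraries labelled agb1-2 (log2 3.31, SE 0.94, adjusted p = 0.015). The counts were 2 in gpa1-3, 1 in the libraries labelled agb1-2 and 0 in xlg1,2,3, beside 4.79% of all genes in gpa1-3, 13.2% in the libraries labelled agb1-2 and 2.63% in xlg1,2,3. In xlg1,2,3, where neither edgeR nor DESeq2 called a gene, TIP2;3 had log2 2.19 (SE 0.95, adjusted p = 0.26) and the only unadjusted p under 0.05. Each of the 3 calls at 2 h was lost on leaving out any of more than 1 library. The TIP1;1 call was lost by single removals in each of the groups it uses. The calls of TIP2;3 were lost without the libraries numbered 3. In gpa1-3 the TIP2;3 call was also lost when only the groups compared were fitted (adjusted p = 0.075). After tunicamycin 1 difference was called, TIP1;1 in gpa1-3 at 0.71 (SE 0.24, adjusted p = 0.042), and it was lost on leaving out any of 6 of its 10 libraries. The shares of all genes called for tunicamycin were 15.9% in gpa1-3, 11.4% in the libraries labelled agb1-2 and 5.71% in xlg1,2,3. No difference in response was called for TIP1;2 or TIP2;2 at any time in the model of all 44 libraries. For the second of these at 24 h the log2 difference was 1.04 (SE 0.41, adjusted p = 0.059) in the libraries labelled agb1-2, which DESeq2 called (adjusted p = 0.043), as edgeR did without the libraries numbered 3 (log2 1.7, adjusted p = 0.014) and on leaving out either of 2 libraries. It was 1.04 (SE 0.41, adjusted p = 0.14) in gpa1-3, and called there when only the groups compared were fitted (log2 1.03, adjusted p = 0.016). The first lay between -0.63 and 0.48 on the log2 scale.

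Of the other 5 TIP genes, TIP1;3 had 0 counts in all 44 libraries, and TIP4;1 and TIP5;1 (at most 0.391 and 0.124 CPM) did not pass the filter. TIP3;2, the beta-TIP known from seeds, was low but tested, at 0.873 ± 0.389 CPM in Col-0 at 0 h, 2.81 ± 0.999 at NaCl 2 h and 3.30 ± 0.852 at NaCl 24 h. It rose by 24 h of NaCl in all 4 genotypes, by log2 2.30 (SE 0.32, adjusted p = 2.2e-07) in gpa1-3, 2.11 (SE 0.32, adjusted p = 1.0e-06) in the libraries labelled agb1-2, 1.48 (SE 0.33, adjusted p = 2.5e-04) in xlg1,2,3 and 1.81 (SE 0.35, adjusted p = 4.2e-05) in Col-0. TIP3;1, the alpha-TIP of seed protein storage vacuoles, averaged 1.57 ± 0.455 CPM at 0 h in gpa1-3, against 0.0478 ± 0.0581 CPM in Col-0, a log2 difference of 4.67 (SE 1.48, adjusted p = 0.031). That gene was at or above the filter's 0.337 CPM in 14 of 44 libraries only, and Col-0 at 0 h had 5 counts of it in all. The seed marker sums of the gpa1-3 libraries at 0 h, and of other groups, are given above.

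The aquaporins of the plasma membrane gave a setting for the vacuolar ones. In Col-0, 4 higher and 4 lower of 13 PIP genes were called at NaCl 2 h against 0 h and 2 higher and 8 lower at 24 h, with median log2 changes of -0.09 at 2 h and -0.74 at 24 h, beside -0.008 and -0.009 over all genes tested. The shares of all genes called were 56.3% at 2 h and 57.8% at 24 h. PIP1;1 (AT3G61430), an abundant plasma membrane water channel, was at 438 ± 78.7 CPM at NaCl 2 h against 164 ± 8.69 CPM at 0 h (log2 1.41, SE 0.10, adjusted p = 3.3e-14) and stayed higher at 24 h. PIP1;2 (AT2G45960) was at 838 ± 176 CPM at NaCl 2 h against 396 ± 20.6 CPM at 0 h (log2 1.08, SE 0.10, adjusted p = 1.8e-11), and PIP1;5 (AT4G23400) was lower, at 31.1 ± 5.91 CPM at NaCl 2 h against 77.6 ± 3.68 CPM at 0 h (log2 -1.31, SE 0.12, adjusted p = 2.6e-11). PIP2;3 (AT2G37180) was at 28.7 ± 2.48 CPM at NaCl 24 h against 90 ± 9.45 CPM at 0 h (log2 -1.65, SE 0.11, adjusted p = 9.8e-15) and PIP2;6 (AT2G39010) at 301 ± 17.8 CPM at NaCl 24 h against 605 ± 36.9 CPM at 0 h (log2 -1.0, SE 0.09, adjusted p = 1.2e-11). In the mutants at 24 h the PIP counts were 5 higher and 7 lower in gpa1-3, 5 higher and 5 lower in the libraries labelled agb1-2 and 3 higher and 7 lower in xlg1,2,3, beside 57.1% of all genes in gpa1-3, 60.2% in the libraries labelled agb1-2 and 60.6% in xlg1,2,3.

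Among 15 proton pumps and transporters of the vacuolar membrane, 7 higher and 3 lower were called in Col-0 at 2 h and 7 higher and 3 lower at 24 h, with median log2 changes of 0.29 at 2 h and 0.26 at 24 h, beside -0.008 and -0.009 over all genes tested. These 10 of 15 at each time stand beside 56.3% of all genes called at 2 h and 57.8% at 24 h. NHX2 (AT3G05030), a vacuolar cation/proton exchanger, was at 15.7 ± 2.33 CPM at NaCl 24 h against 7.36 ± 0.640 CPM at 0 h (log2 1.09, SE 0.12, adjusted p = 5.3e-09). CAX3 (AT3G51860), a vacuolar calcium/proton exchanger, was at 78 ± 3.85 CPM at NaCl 24 h against 41.2 ± 5.75 CPM at 0 h (log2 0.92, SE 0.11, adjusted p = 7.7e-09), and TST2 (AT4G35300), a tonoplast sugar transporter, at 25.7 ± 2.09 CPM at NaCl 24 h against 15 ± 0.215 CPM at 0 h (log2 0.77, SE 0.10, adjusted p = 3.1e-08). TST2 was also higher at the earlier time, at 32.6 ± 4.96 CPM at NaCl 2 h against 15 ± 0.215 CPM at 0 h (log2 1.12, SE 0.10, adjusted p = 6.9e-12) and VHA-a3 (AT4G39080), a vacuolar subunit of the V-type proton ATPase, was lower, at 234 ± 15.6 CPM at NaCl 2 h against 402 ± 27.4 CPM at 0 h (log2 -0.78, SE 0.11, adjusted p = 1.2e-07).

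The patterns of the 5 genes over the 16 groups were compared by Pearson's correlation of mean log2 CPM (0.5 CPM added), as a description of groups that share treatments and genotypes. TIP1;1 and TIP2;1 ran together most (r = 0.74), and the TIP1 pair was negatively correlated (r = -0.59), though not opposite in every comparison. Among all genes tested with a mean of at least 10 CPM, the pattern most like TIP1;1 was that of AT1G14590 (r = 0.95), then AT3G17090 (0.95) and the raffinose synthase gene RS5, AT5G40390 (0.95). For TIP1;2 they were AT1G74910 (0.96), the cytosolic fructose bisphosphatase gene AT1G43670 (0.95) and TRFL6, AT1G72650 (0.95). For TIP2;1 they were ULT1, AT4G28190 (0.98), the xyloglucan endotransglucosylase gene XTH4, AT2G06850 (0.96), and COB, AT5G60920, which acts in oriented cell expansion (0.95). For TIP2;2 they were SR34b, AT4G02430 (0.95), AT3G16800 (0.94) and the cuticular wax exporter gene ABCG12, AT1G51500 (0.92). For TIP2;3 they were LSF1, AT3G01510 (0.93), LOG2, AT3G09770 (0.91), and NF-YA1, AT5G12840 (0.90). The choice of genes depends on the use of group means. Ranked over the 44 libraries instead, 3 of the 3 genes named for TIP2;1 were again among the top 3, 2 of 3 for TIP1;1, TIP2;2 and TIP2;3, and 1 of 3 for TIP1;2, and SR34b had r = 0.80.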

How the data were processed

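RNA-seq libraries of Arabidopsis seedlings were analysed from the expected counts per gene that the authors deposited, which need not be whole (1.35% of values were not). The submitters' processing notes name STAR and the TAIR10 genome, with no version, and neither the counting tool nor its strand setting is given in the sources used here. Reads that a counter splits between close relatives, or between overlapping genes, would move their values. Counts were rounded, filtered with filterByExpr (minimum count 10, total 15) and scaled by TMM. CPM values are those after TMM. edgeR 4.0.16 (R 4.3.3) fitted 1 quasi-likelihood model with 16 group means to all 44 libraries, so that all groups share one estimate of the spread, and Benjamini-Hochberg adjustment ran over all 20858 genes tested in each of 37 comparisons. SE is the log2 change divided by the root of F. Each p-value tests a difference of group means against the spread between libraries within groups, as estimated by that model. The pipeline was also run on simulated counts in which a small set of genes differed in 1 group only. In these data far more genes were called, so that run does not test the scaling or the calls under such broad change. Depth was 14135237 to 39011130 counts, lowest in libraries numbered 3.

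The 5 genes and the gene lists were chosen with earlier results of these data known. The other genes named are the remaining TIP genes, the label checks, up to 3 genes of each transport list with the smallest adjusted p in Col-0 at each salt time, and the 3 genes whose group means correlate best with each TIP gene. Coordinates, exon lengths and sequences came from TAIR10.1, read with Biopython 1.88. Alternatives were DESeq2 1.42.0, DESeq2 size factors, no low-count filter, a replicate block, only the groups compared, no libraries numbered 3, and each library left out in turn.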

Additional observations from a re-analysis of the deposited data

Results flagged for a closer look

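The responses below were picked out because the change from 0 h in a mutant differed from that in Col-0 by an interaction term of the edgeR model (adjusted p under 0.05). The 3 mutants share the Col-0 libraries, so these results are not independent, and no explanation was tested. For NaCl 24 h, TIP1;1 differed by log2 1.65 in gpa1-3 (adjusted p = 2.3e-05), 2.08 in the libraries labelled agb1-2 (adjusted p = 1.4e-07) and 1.62 in xlg1,2,3 (adjusted p = 2.2e-05). TIP2;1 differed at 24 h by log2 0.94 in gpa1-3, 1.30 in the libraries labelled agb1-2 and 0.88 in xlg1,2,3 (adjusted p at most 0.00028). TIP2;3 differed at 24 h by log2 3.58 in the libraries labelled agb1-2 (adjusted p = 0.022). For NaCl 2 h, TIP1;1 differed by log2 0.82 in gpa1-3 (adjusted p = 0.022). TIP2;3 differed at 2 h by log2 3.98 in gpa1-3 (adjusted p = 0.024) and by 3.31 in the libraries labelled agb1-2 (adjusted p = 0.015). For tunicamycin, TIP1;1 differed by log2 0.71 in gpa1-3 (adjusted p = 0.042). The calls of TIP1;1 and TIP2;1 at NaCl 24 h held under every alternative tried. Each of the other calls listed here was lost under some alternatives, as described above.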

How the results depend on the processing

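Of 185 results for single TIP genes, 102 were called, in comparisons where 2.63% to 60.6% of all genes were called. Of these 102, 79 stayed called under every alternative in which the gene was tested. None reversed, where a change of sign counts only for a called value. A call whose gene did not pass the filter in a smaller fit counts here as kept. The number of the 5 genes called was unchanged in 31 of 37 comparisons with DESeq2 and 1 higher in the other 6. DESeq2 size factors (which moved the median of all genes by at most 0.033 log2) left all 37 numbers as they were, with 1 call gained and 1 lost in Col-0 after tunicamycin. Without the low-count filter 1 number was lower, by the TIP1;2 call in Col-0 after tunicamycin. The labels do not say what a shared replicate number stands for. The libraries numbered 3 were all shallower than the others, and the correlations of same-numbered deviations from the group means ran from -0.225 to 0.259 where there were 3 pairs. All 3 pairs were over 0.1 in 3 of 21 comparisons (gpa1-3 against Col-0 at 0 h, the libraries labelled agb1-2 against Col-0 at NaCl 2 h, and NaCl 24 h against 2 h in xlg1,2,3), and the replicate block changed no call of the 5 genes there. It left 36 of 37 numbers as they were and ended 1 call, TIP2;2 in xlg1,2,3 against Col-0 at NaCl 24 h (log2 0.83, adjusted p = 0.050). With only the groups compared in the fit, the number called was unchanged in 23 of 37 comparisons, higher in 5 and lower in 9. A gene that such a fit filtered out counted as not called in these numbers. For this fit and those that left out libraries, only changes by over 1.5 times or to or from 0 are named. Against Col-0 the number became 2 for gpa1-3 at 0 h (1 in the full fit), 1 for gpa1-3 in tunicamycin (2) and 0 for xlg1,2,3 in tunicamycin (1). For the difference in response it became 1 for gpa1-3 at NaCl 2 h (2) and 0 for gpa1-3 in tunicamycin (1). Without the libraries numbered 3 the number was unchanged in 26 of 37 comparisons, higher in 1 and lower in 10. It became 1 for gpa1-3 against Col-0 at NaCl 2 h (4) and 1 for xlg1,2,3 against Col-0 at NaCl 24 h (4). For the response at NaCl 2 h it became 1 in gpa1-3 (2) and 0 in the libraries labelled agb1-2 (1). With single libraries left out, the number called against Col-0 ran over 1 to 2 for xlg1,2,3 at 0 h, 2 to 4 for gpa1-3 at NaCl 2 h, and in tunicamycin 0 to 2 for gpa1-3, 0 to 1 for the libraries labelled agb1-2 and 0 to 1 for xlg1,2,3. For the difference in response it ran over 0 to 2 for gpa1-3 at NaCl 2 h, 0 to 1 for the libraries labelled agb1-2 at NaCl 2 h and 0 to 1 for gpa1-3 in tunicamycin. Where this leaves 1 tunicamycin library in a group, its spread is taken from the other groups. The number of all genes called moved by over 1.5 times in 8 comparisons with only the groups compared, for example to 550 from 1654 for gpa1-3 against Col-0 at NaCl 24 h and to 80 from 549 for the response of xlg1,2,3 at NaCl 2 h. It did so in 8 comparisons without the libraries numbered 3 and in 34 fits that left out a library. The cause was not tested. Depth limits TIP2;3 most, with at most 231 counts in a library.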
